A study of Mus musculus with 6 samples.

Results

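Recruited and interstitial macrophage genes are genes linked to macrophages and monocytes which enter tissue from blood or lie in the lung's interstitium. Levels in whole lung do not tell whether these cells or the resident macrophages of the air spaces carry the transcripts. The set was defined by symbol and held 9 genes: the complement C1q chain genes C1qa, C1qb and C1qc, then Gpnmb, Trem2, Spp1, Cx3cr1, Cd14 and Ly6c2. Of these 9 genes, 8 were matched to a probe by the probe's accession and all 8 passed the filter on dim probes, out of 12968 genes tested. Ly6c2 was matched to no probe, so no value is given for it. The probe of its neighbour Ly6c1, the gene next to it on chromosome 15 and a closely related LY6 gene, is given beside the set and is not counted in it.

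Lung total RNA was measured on 6 single-colour Agilent mouse arrays, 2 for each of 3 genotypes on the C57BL/6 background: hCD2-T-bet tg/tg, hCD2-T-bet tg/wt and WT. The transgene overexpresses T-bet, the transcription factor of the T helper programme that makes interferon gamma, in T cells, and the series links it to pulmonary alveolar proteinosis, in which surfactant collects in the air spaces. Treatment, age, sex, the number of founder lines and whether animals were pooled are not given in the sources used here, and neither is whether a genotype's 2 arrays stand for different mice. All p-values therefore describe array-to-array spread, part or all of which may be technical. The tg/tg and WT arrays shared slide 1 and the tg/wt arrays lay on slide 2, so slide and genotype cannot be told apart in either comparison with tg/wt.

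All levels are log2 signals minus the array's own 75th percentile, a signal of 794 to 1204 intensity units. The share of probes well above background was 62.0% to 66.8%. Replicate arrays correlated at 0.996 to 0.997 across genes, which are not independent replicates. Tbx21, which encodes T-bet, had levels of 3.25 and 3.26 in tg/tg lungs, 1.30 and 1.34 in tg/wt lungs and -0.70 and -0.71 in WT lungs. All 8 lung epithelial markers were tested on these arrays, among them the club cell gene Scgb1a1, at 8.39 and 8.15 in tg/tg, 8.54 and 8.85 in tg/wt and 8.87 and 8.86 in WT lungs. A level from whole lung does not separate a change in the number of cells of a type from a change in RNA per cell.

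C1q is the recognition molecule of the classical complement pathway, built from chains A, B and C, and in tissues it is made mainly by macrophages. TREM2 is a lipid-sensing receptor that signals through the adaptor DAP12, and together with GPNMB, a glycoprotein of lipid-laden and lysosome-rich macrophages, and osteopontin, the secreted product of Spp1, it marks macrophages that gather where lipid and debris collect. CX3CR1 is the fractalkine receptor of patrolling monocytes, tissue macrophages and cytotoxic lymphocytes, CD14 is the co-receptor that hands lipopolysaccharide to TLR4, and Ly6C marks classical monocytes in mice.

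All 8 measured genes were higher in tg/tg lungs than in WT lungs, by 2.99-fold for Cx3cr1 up to 22.1-fold for Gpnmb. The median log2 difference of the 8 genes was 3.86, against a median of -0.05 over all genes tested. The set was chosen with earlier results of these data known, so comparisons with all genes here describe it and do not test it. For tg/tg against WT, 33.8% of all genes tested were called higher and 40.8% lower (limma, Benjamini-Hochberg threshold 0.05), 74.7% in all. These shares also stand behind the list counts for tg/tg against WT given below. In tg/wt lungs the genes separated: C1qa, C1qb, C1qc, Cx3cr1 and Gpnmb were higher than in WT, Spp1 and Cd14 were lower, and Trem2 did not pass the threshold. That is 5 of 8 genes higher where 13.4% of all genes were, and 2 of 8 lower where 14.6% of all genes were, with 27.9% called in either direction. The list counts for tg/wt against WT given below are to be read beside these 3 shares, which some of them lie near. The arrays of the groups did not overlap for any of the 8 genes, Trem2 included, in either comparison with WT. With 2 arrays against 2 that was the usual case: 87.9% of all genes tested did not overlap between tg/tg and WT and 72.4% did not between tg/wt and WT.

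**Figure D1:**
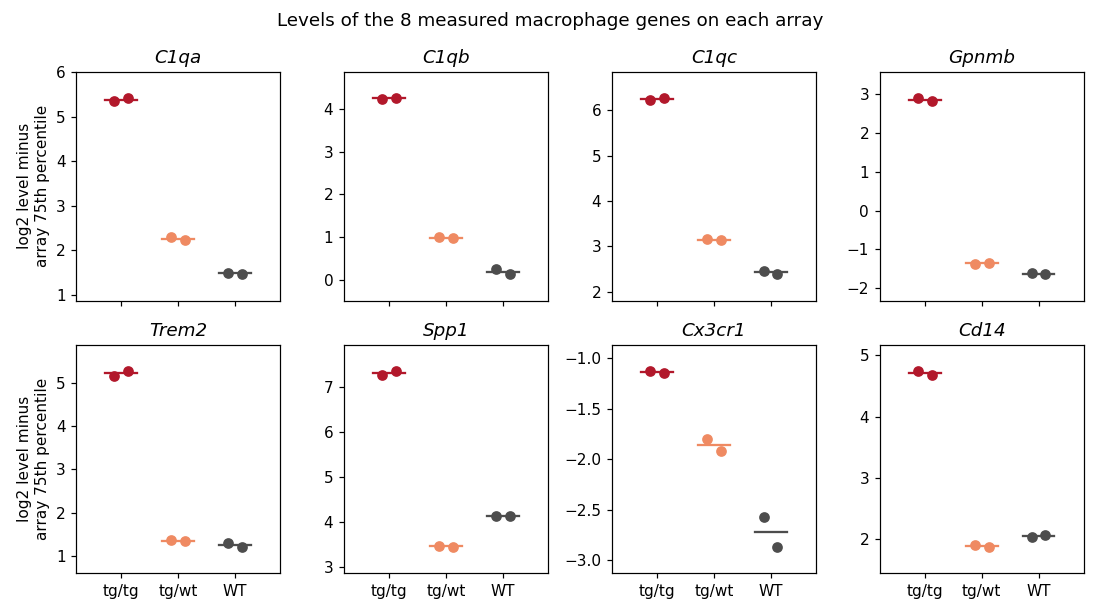
Log2 level of each of the 8 measured genes, relative to the array's 75th percentile, on each array of tg/tg, tg/wt and WT lungs; points are arrays and lines are group means of 2 arrays, and each panel has its own vertical scale. The tg/tg arrays are highest in every panel, while the tg/wt arrays lie above WT for the C1q genes, Gpnmb and Cx3cr1, near WT for Trem2 and below WT for Spp1 and Cd14.

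The 3 C1q chain genes had nearly the same pattern. C1qa, the A chain gene, had levels of 5.35 and 5.41 in tg/tg, 2.30 and 2.23 in tg/wt and 1.51 and 1.47 in WT lungs. C1qb, the B chain gene, had 4.24 and 4.25 in tg/tg, 1.01 and 0.96 in tg/wt and 0.25 and 0.13 in WT lungs. C1qc, the C chain gene, had 6.24 and 6.27 in tg/tg, 3.15 and 3.13 in tg/wt and 2.46 and 2.38 in WT lungs. For each chain the groups were ordered tg/tg, tg/wt, WT with no overlap. The rise in tg/tg over WT was 14.9-fold for C1qa (log2 difference 3.90, SE 0.0434, adjusted p = 8.09e-07), 16.7-fold for C1qb (4.06, SE 0.0521, adjusted p = 1.13e-06) and 14.2-fold for C1qc (3.83, SE 0.0416, adjusted p = 7.92e-07). In tg/wt over WT it was 1.72-fold for C1qa (0.78, adjusted p = 0.00103), 1.74-fold for C1qb (0.80, adjusted p = 0.00136) and 1.65-fold for C1qc (0.72, adjusted p = 0.00109). The tg/wt level thus stood at 18.8% (C1qc) to 20% (C1qa) of the log2 distance between WT and tg/tg, where the level of Tbx21 stood at 51.1%. Within an array, the log2 ratio of C1qb to C1qc relative to its WT mean was 0.24 and 0.21 in tg/tg, 0.09 and 0.07 in tg/wt and 0.02 and -0.02 in WT lungs, so the B chain probe moved slightly further than the C chain probe. Ratios of C1qa to C1qc relative to WT were smaller, at 0.05 and 0.08 in tg/tg lungs, 0.08 and 0.04 in tg/wt lungs and -0.02 and 0.02 in WT lungs.

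The 3 chain genes lie next to each other on chromosome 4 with no other protein-coding gene between them on GRCm38. Because they moved together, the 250 bases before the start of C1qb and C1qc are printed from RefSeq (build GRCm38.p6) with those of Trem2, Gpnmb, Spp1 and Cx3cr1, whose tg/wt responses differed from theirs or from each other. The table used held no entry for C1qa, and of the 2 Spp1 starts it lists the first is shown. The window of Cd14 is not reported here. Capitals mark matches, on either strand, to letter patterns in which N is any base. They are a PU.1 core (GAGGAA), a gamma-activated site (TTCNNNGAA) and an interferon-stimulated response element core (GAAA and GAAA, parted by any pair of bases). The others are an AP-1 pattern (TGANTCA) and an MITF and TFE type E-box pattern (TCANNTGA). Their middle bases are free, so they also match letters that are not such sites.
C1qb (chr4:136886201-136886450, minus strand): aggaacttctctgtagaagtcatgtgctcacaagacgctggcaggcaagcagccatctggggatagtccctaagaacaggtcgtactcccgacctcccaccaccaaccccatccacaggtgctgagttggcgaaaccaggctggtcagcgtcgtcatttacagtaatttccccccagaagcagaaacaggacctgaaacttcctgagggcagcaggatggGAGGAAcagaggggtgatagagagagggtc
C1qc (chr4:136892915-136893164, minus strand): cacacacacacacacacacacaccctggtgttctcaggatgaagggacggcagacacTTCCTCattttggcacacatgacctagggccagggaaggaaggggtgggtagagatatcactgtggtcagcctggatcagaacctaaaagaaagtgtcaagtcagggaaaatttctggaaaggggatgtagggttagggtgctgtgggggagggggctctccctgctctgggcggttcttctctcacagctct
Trem2 (chr17:48346151-48346400, plus strand): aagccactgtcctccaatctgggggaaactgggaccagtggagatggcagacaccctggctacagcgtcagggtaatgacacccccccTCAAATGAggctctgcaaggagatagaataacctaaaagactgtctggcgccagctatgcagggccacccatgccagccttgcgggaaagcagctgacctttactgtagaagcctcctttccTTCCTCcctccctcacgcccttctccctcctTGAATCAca
Gpnmb (chr6:49036268-49036517, plus strand): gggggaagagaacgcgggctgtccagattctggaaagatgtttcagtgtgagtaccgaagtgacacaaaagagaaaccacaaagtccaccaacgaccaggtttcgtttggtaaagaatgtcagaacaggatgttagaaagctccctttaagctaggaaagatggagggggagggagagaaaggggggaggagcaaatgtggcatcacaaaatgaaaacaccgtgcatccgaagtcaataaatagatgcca
Spp1 (chr5:104434861-104435110, plus strand): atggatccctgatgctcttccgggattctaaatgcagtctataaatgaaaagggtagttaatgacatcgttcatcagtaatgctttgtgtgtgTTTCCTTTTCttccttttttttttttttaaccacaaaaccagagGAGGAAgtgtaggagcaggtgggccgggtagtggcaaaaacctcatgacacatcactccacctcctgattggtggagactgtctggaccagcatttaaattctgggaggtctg
Cx3cr1 (chr9:120068297-120068546, minus strand): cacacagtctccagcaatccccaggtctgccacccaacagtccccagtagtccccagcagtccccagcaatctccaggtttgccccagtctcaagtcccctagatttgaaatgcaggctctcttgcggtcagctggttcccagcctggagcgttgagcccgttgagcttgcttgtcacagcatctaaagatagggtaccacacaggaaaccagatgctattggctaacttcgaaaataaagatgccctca
PU.1 is the myeloid master regulator, and its core letters were found in the windows of C1qb (30 bases before the start), C1qc (193 bases before, reverse strand), Trem2 (40 bases before, reverse strand) and Spp1 (113 bases before), and not in those of Gpnmb and Cx3cr1. Of 32851 mouse windows of this length 23.3% hold the same letters, so the 4 of 6 windows printed that hold it share a common motif. The windows of Ly6c2, which has no measured value, are not printed and also held the PU.1 core. The Trem2 window also matched the AP-1 pattern, as TGAATCA (pattern in 6.75% of windows), and the E-box pattern, as TCAAATGA (7.09%). Whether these letters are sites of the factors named was not tested. The Spp1 window held an interferon-stimulated response element core on the reverse strand (2.98%). The windows of Gpnmb and Cx3cr1, and that of the second Spp1 start, held no match to any of the 5 motifs, and no gamma-activated site (7.02% of windows) was found in the windows printed. These matches describe letters in the windows, and nothing in the arrays measures binding.

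Among 9 tested genes of the C1 complex and the partners that bind C1q, 5 were higher and 2 lower in tg/tg than in WT lungs (median log2 difference 0.53). Over all genes tested 33.8% were higher and 40.8% lower there. The serine protease genes C1ra (2.85-fold) and C1s1 (2.34-fold), whose products complete the C1 complex, and Serping1 (2.03-fold), which encodes the C1 inhibitor, were higher, by less than the C1q chain genes themselves. Cd93, a gene of endothelial and myeloid cells once described as a C1q receptor, was 2.06-fold lower. The scavenger receptor gene Scarf1 was 1.15-fold lower. In tg/wt against WT 2 of the 9 genes were higher, including C1s1 (log2 difference 0.29, adjusted p = 0.00718), and 2 were lower.

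Gpnmb and Trem2 were high in tg/tg lungs and close to WT in tg/wt lungs. Gpnmb had levels of 2.88 and 2.80 in tg/tg, -1.37 and -1.35 in tg/wt and -1.61 and -1.64 in WT lungs. Its rise in tg/tg over WT, 22.1-fold (log2 difference 4.46, SE 0.0418, adjusted p = 6.38e-07), was the largest of the set. In tg/wt over WT it was 1.20-fold (0.26, SE 0.0418, adjusted p = 0.0142). That small rise did not pass without either tg/wt array or either WT array (adjusted p = 0.0587 to 0.0788). A second Gpnmb probe was too dim to test, with no array well above background.

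Trem2 was measured by 2 probes. The brighter probe had levels of 5.17 and 5.28 in tg/tg, 1.36 and 1.34 in tg/wt and 1.29 and 1.20 in WT lungs, a 15.8-fold rise in tg/tg over WT (log2 difference 3.98, SE 0.0527, adjusted p = 1.18e-06). The tg/wt difference of the brighter probe from WT was 0.11 (95% confidence interval -0.03 to 0.24, adjusted p = 0.196). The dimmer probe had levels of 2.88 and 2.80 in tg/tg, -0.99 and -0.95 in tg/wt and -1.14 and -1.24 in WT lungs. With every probe fitted on its own, the dimmer probe was 16.4-fold above WT in tg/tg and 1.16-fold above WT in tg/wt, the last with an adjusted p = 0.0495. Both probes therefore place tg/wt within 0.22 log2 units of WT and far from tg/tg, and they fall on different sides of the threshold.

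Genes that work with TREM2 were also higher in tg/tg lungs. Of 11 tested genes of its adaptor and signalling route 10 were higher and 1 lower than in WT (median log2 difference 1.37). Tyrobp, which encodes the adaptor DAP12, was 5.12-fold higher, the related adaptor gene Hcst 6.21-fold, the guanine nucleotide exchange factor gene Vav1 7.05-fold and Ms4a6d, a membrane gene of myeloid cells, 23.1-fold. Vav3 was 1.61-fold lower. In tg/wt against WT 6 of the 11 were higher and none lower. Tyrobp (log2 difference -0.06, adjusted p = 0.284) and Ms4a6d (0.01, adjusted p = 0.896) did not pass there, and Hcst (0.61) and Vav1 (0.63), which lymphocytes also use, were higher.

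Of 19 tested genes of lipid-associated macrophages 14 were higher and 3 lower in tg/tg than in WT lungs (median log2 difference 1.38). The macrophage elastase gene Mmp12 was 59.1-fold higher (1 of the 2 WT arrays measured it well above background), the cystatin gene Cst7 15.1-fold, the cholesterol hydroxylase gene Ch25h 9.05-fold and the membrane protease gene Mmp14 6.12-fold. Fabp4 (2.76-fold) and the fatty acid receptor gene Cd36 (2.42-fold) were lower. Fat and endothelial cells also express both, and which cells account for the lower values was not tested. In tg/wt against WT 2 of the 19 were higher and 6 lower (median -0.08). Ch25h was lower there by 0.29 and Fabp4 by 0.68, and Cst7, which cytotoxic lymphocytes also express, was higher by 1.29.

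Of the 8 genes, Spp1 and Cd14 had tg/tg and tg/wt differences from WT of opposite sign, and that of Spp1 in tg/wt was the larger. Its probe, printed in 10 spots of which 9 were used on each array, had levels of 7.27 and 7.36 in tg/tg, 3.48 and 3.45 in tg/wt and 4.15 and 4.15 in WT lungs. Within an array the spots had an SD of 0.0229 to 0.0381 on the log2 scale, which measures the technical error of single spots alone. The array levels, each a mean over spots, had an SD of 0.0604 in tg/tg, 0.0169 in tg/wt and 0.00161 in WT lungs. Spp1 was 9.0-fold higher in tg/tg lungs than in WT (log2 difference 3.17, SE 0.0419, adjusted p = 1.18e-06) and 1.6-fold lower in tg/wt than in WT (-0.68, SE 0.0419, adjusted p = 0.00122). Between tg/tg and tg/wt the difference was 14.4-fold (3.85, adjusted p = 1.25e-06).

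Osteopontin binds integrins and CD44. Of its 10 tested receptor genes 5 were higher and 4 lower in tg/tg than in WT lungs (median log2 difference 0.51). Over all genes tested 33.8% were higher and 40.8% lower there. Cd44 (2.62-fold), Itga5 (2.61-fold) and the epithelial integrin gene Itgb6 (2.07-fold) were higher. Itga8, an integrin gene of mesenchymal cells, was 13.9-fold lower, and Itgb5 and Itgb1 were lower by 0.45 and 0.39. In tg/wt against WT 1 of the 10 was higher and 3 were lower. Of the 4 tested smooth muscle and bone genes listed as other sources of Spp1, Myh11, Tagln and Acta2 were 2.89-fold, 2.32-fold and 1.75-fold lower in tg/tg. The alkaline phosphatase gene Alpl, which bone cells express, was 1.37-fold higher (adjusted p = 4.22e-04), and the bone genes Bglap and Ibsp were not well above background on any array. The part of smooth muscle, bone or other cells in the Spp1 values was not tested.

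Cd14 had levels of 4.74 and 4.68 in tg/tg, 1.90 and 1.87 in tg/wt and 2.03 and 2.07 in WT lungs. It was 6.34-fold higher in tg/tg lungs than in WT (log2 difference 2.66, SE 0.0405, adjusted p = 1.52e-06). In tg/wt it was 1.12-fold lower than in WT (-0.16, 95% confidence interval -0.27 to -0.06, adjusted p = 0.0423). That last call ended without either tg/wt array or either WT array (adjusted p = 0.106 to 0.183) and with the replicate number as a block (adjusted p = 0.0820).

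Neutrophils carry CD14, and their markers had differences from WT of the same signs as Spp1 and Cd14, but of other sizes. Genes of other lists, such as Ch25h, Pf4 and F13a1, had these signs too. All 8 tested neutrophil markers were higher in tg/tg than in WT (median log2 difference 0.81) and lower in tg/wt than in WT (median -1.87). The summed level of the 8 was 63.8 to 65.5 in tg/tg, 13.8 to 14.2 in tg/wt and 53.4 to 54.8 in WT lungs. Mpo, the myeloperoxidase gene, was 12.3-fold higher in tg/tg, and Camp, a granule peptide gene, was at least 2.65-fold lower in tg/wt, where neither array measured it well above background. Elane, another granule gene, was well above background on 1 array and was not tested. The part of these cells in the Spp1 and Cd14 values was not tested.

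Of 11 tested genes that work with CD14 or act after it, 9 were higher and none lower in tg/tg than in WT lungs (median log2 difference 0.48). Tlr2, the lipopeptide receptor gene, was 9.38-fold higher, the adaptor gene Myd88 2.39-fold, Ly96, which encodes the TLR4 partner MD-2, 2.22-fold and the kinase gene Irak4 1.65-fold. In tg/wt against WT, Tlr2 was the gene called higher (log2 difference 0.37, adjusted p = 0.00303) and Ly96 the gene called lower (-0.19, adjusted p = 0.0468).

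Cx3cr1 was the gene of the set with the smallest rise in tg/tg and the largest estimate in tg/wt. Its brighter probe had levels of -1.13 and -1.15 in tg/tg, -1.80 and -1.92 in tg/wt and -2.57 and -2.87 in WT lungs. The WT arrays differed by more than those of any other gene of the set, which gives an SE of 0.109. Against WT, Cx3cr1 was 2.99-fold higher in tg/tg (log2 difference 1.58, adjusted p = 1.47e-04) and 1.82-fold higher in tg/wt (0.86, 95% confidence interval 0.58 to 1.15, adjusted p = 0.00778), an interval that takes in the tg/wt estimates of the C1q genes. Against tg/wt, its level in tg/tg was 1.65-fold higher (0.72, adjusted p = 0.00279), a call that ended with normexp on the uncapped local backgrounds (0.64, adjusted p = 0.271). The tg/wt level stood at 54.5% of the log2 distance between WT and tg/tg. A second, dim probe was well above background on 3 of the 6 arrays. Fitted on its own it rose by 0.78 in tg/tg over WT (adjusted p = 0.0204), and its differences of 0.29 between tg/tg and tg/wt (adjusted p = 0.247) and of 0.48 between tg/wt and WT (adjusted p = 0.150) did not pass.

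Cx3cl1, which encodes fractalkine, the ligand of CX3CR1, had levels of 3.32 and 3.38 in tg/tg, 3.95 and 3.96 in tg/wt and 3.97 and 3.94 in WT lungs. Cx3cl1 was 1.53-fold lower in tg/tg lungs than in WT lungs (adjusted p = 9.63e-05) and did not pass in tg/wt (log2 difference -0.00, adjusted p = 0.936). Cytotoxic lymphocytes also carry CX3CR1. All 8 tested T cell markers were higher in tg/tg and 6 of 8 in tg/wt than in WT, with a summed level of 24.6 to 25.2 in tg/tg, 6.69 to 6.76 in tg/wt and 3.86 to 3.98 in WT lungs. Of 8 NK cell markers 6 were higher and 1 lower in tg/tg, and 6 were higher in tg/wt, with a summed level of 27.8 to 29.0 in tg/tg, 6.72 to 6.84 in tg/wt and 2.77 to 2.81 in WT lungs. Nkg7, a cytotoxic granule gene, was 18.4-fold higher in tg/tg, and the NK receptor gene Ncr1 was 1.97-fold lower. In tg/tg and tg/wt lungs most of the summed NK level came from Nkg7 alone. Its log2 levels were 4.66 and 4.73 in tg/tg, 2.11 and 2.11 in tg/wt and 0.50 and 0.49 in WT. Set against tg/wt, tg/tg lungs had 3 of the 8 NK markers higher and 2 lower (median log2 difference 0.29). The part of lymphocytes in the Cx3cr1 values was not tested.

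Ly6c1 had levels of 4.91 and 4.91 in tg/tg, 3.02 and 2.97 in tg/wt and 3.43 and 3.40 in WT lungs. Its probe was 2.81-fold higher in tg/tg lungs than in WT (log2 difference 1.49, SE 0.0347, adjusted p = 4.46e-06) and 1.33-fold lower in tg/wt (-0.42, adjusted p = 0.00264), the same signs as Spp1 and Cd14. The gene is named by the probe's accession, and how far the probe also binds Ly6c2 transcripts was not tested. Of 14 tested LY6 family genes 7 were higher and 4 lower in tg/tg. Over all genes tested 33.8% were higher and 40.8% lower there. Ly6f was 122-fold higher, Ly6i 3.57-fold and the activation marker gene Ly6a 2.17-fold, and Gpihbp1, a gene of capillary endothelium, was 1.74-fold lower. These genes are similar in sequence and their probes may share transcripts. Endothelium also expresses Ly6c1, and the other 7 endothelial markers were all lower in tg/tg, with Tek 3.31-fold, Kdr 3.25-fold and Cdh5 2.99-fold lower. The part of endothelium in the Ly6c1 values was not tested.

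**Figure D2:**
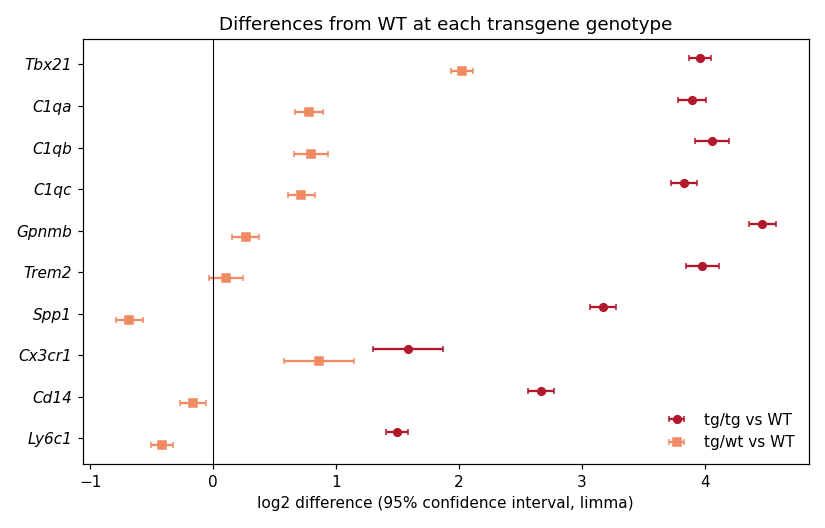
Log2 difference from WT in tg/tg (circles) and tg/wt (squares) for Tbx21, the 8 measured genes and Ly6c1, with 95% confidence intervals from limma. Intervals for tg/tg lie between 1.30 and 4.57, while those for tg/wt lie on both sides of 0 and include it for Trem2.

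Between tg/tg and tg/wt lungs all 8 genes were higher in tg/tg, where 34.0% of all genes tested were higher, 40.2% lower and 74.2% called in either direction. The largest differences were those of Gpnmb (18.4-fold, log2 difference 4.20), Trem2 (14.7-fold, 3.87) and Spp1 (14.4-fold, 3.85). C1qb (9.59-fold), C1qa (8.68-fold), C1qc (8.65-fold) and Cd14 (7.11-fold) followed. For these 7 the adjusted p ran between 1.17e-06 and 2.28e-06, and no tg/tg array overlapped a tg/wt array for any of the 8, as was so for 87.5% of all genes tested.

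Wider lists of monocyte and macrophage genes moved less uniformly. Of 14 tested interstitial macrophage markers 11 were higher and 2 lower in tg/tg than in WT lungs (median log2 difference 0.99). Ms4a7 (30.3-fold), the Fc receptor gene Fcgr1 (22.4-fold) and the complement receptor gene C3ar1 (13.8-fold) were higher, and Lyve1, a marker of perivascular macrophages and lymphatic vessels, was 6.36-fold lower and Tmem119 3.53-fold lower. In tg/wt 7 of the 14 were higher and 3 lower, with Ms4a7 higher by 1.31 and Fcgr1 by 0.62. Of 10 classical monocyte markers 8 were higher and none lower in tg/tg (median 1.09), led by the integrin gene Itgam (13-fold), the chemokine receptor gene Ccr2 (3.64-fold) and Plac8 (3.63-fold). None of these 3 passed in tg/wt (log2 differences 0.06, 0.11 and -0.13), where 1 of the 10 was higher and 1 lower. Of 10 non-classical monocyte markers 7 were higher and 3 lower in tg/tg (median 0.66), with Fcgr4 25.2-fold and Spn 4.35-fold higher. Eno3 was 3.81-fold lower and Nr4a1, the transcription factor gene of this monocyte type that is also an immediate early gene, 2.81-fold lower.

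Alveolar macrophage markers went mostly the other way in tg/tg lungs. Of 14 tested, 3 were higher and 11 lower than in WT (median log2 difference -0.90), with the lipid droplet gene Cidec 86.3-fold, the keratin gene Krt79 29.7-fold and the lipid-binding gene Fabp1 lower by 90.1-fold or more. The scavenger receptor gene Marco (4.78-fold) and the proton pump gene Atp6v0d2 (3.15-fold) were higher. The summed level of the 14 was 124 to 125 in tg/tg, 140 to 142 in tg/wt and 154 to 159 in WT lungs. In tg/wt 5 were higher and 3 lower, and Cidec (log2 difference -0.07, adjusted p = 0.261) did not pass. Of 8 dendritic cell markers 1, Batf3 (4.34-fold), was higher and 5 were lower in tg/tg, including Itgae (4.48-fold).

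**Figure D3:**
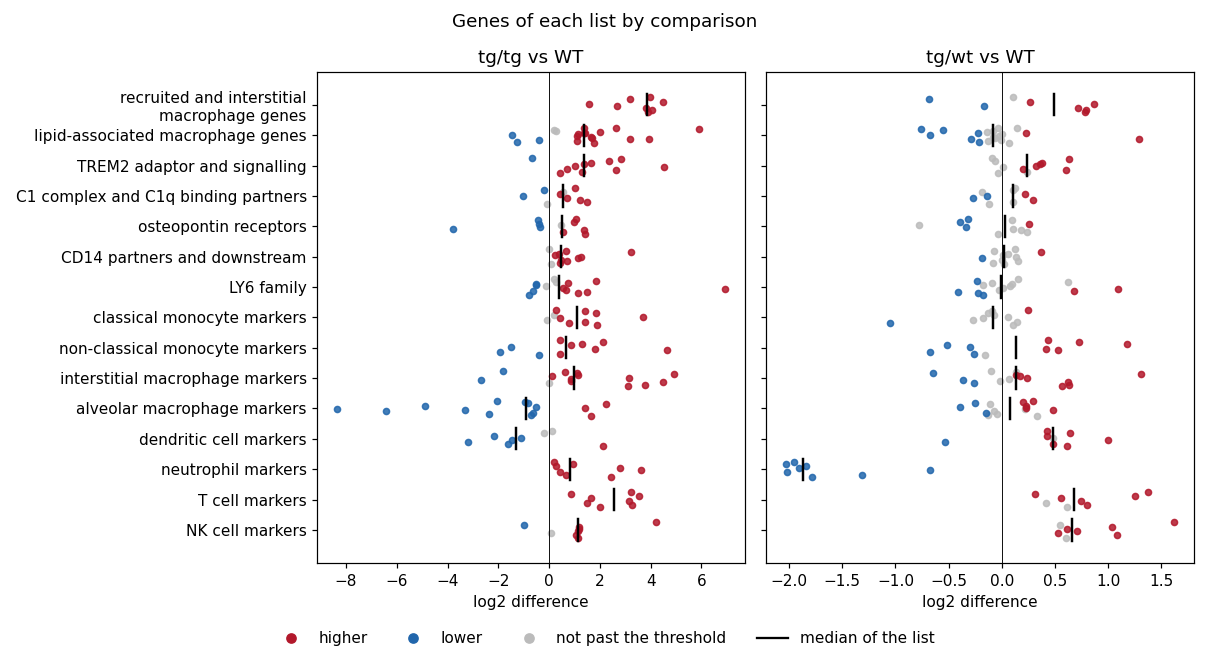
Log2 difference of each tested gene in 15 lists, for tg/tg against WT (left) and tg/wt against WT (right); colour shows whether the gene passed the limma threshold and in which direction, black bars are list medians, and the horizontal scales of the panels differ. The set described here has a median of 3.86 on the left and 0.49 on the right, and neutrophil markers lie to the left of 0 in tg/wt.

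For each gene, the tested gene outside the set whose levels, centred on their own mean, were closest over the 6 arrays was found by the root mean square (RMS) log2 difference. For C1qa and C1qc it was the collagenase gene Mmp13 (RMS 0.0694 and 0.0565) and for C1qb it was Insl6 (0.0801), a relaxin-family gene that was also second for C1qa and C1qc. For Gpnmb it was the amino acid transporter gene Slc7a8 (0.0785), with Clec5a, a myeloid lectin receptor gene, second (0.0968). For Trem2 the closest were the complement factor gene Cfb (0.0703) and the interleukin gene Il1a (0.0753). For Spp1 they were Cd300lf, a myeloid inhibitory receptor gene (0.0580), and Mefv (0.106), which encodes pyrin. For Cd14 they were Tmem171 (0.0605) and the protein C receptor gene Procr (0.0614), and for Cx3cr1 the DNA glycosylase gene Neil3 (0.0746) and the kinetochore gene Ndc80 (0.0958). With 6 arrays in 3 groups, many genes share such a pattern, and the measure describes likeness of levels alone.

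The higher calls in tg/tg held in a fit of the 4 arrays on slide 1 alone, where 8 of 8 genes were higher. In the main fit 33.8% of all genes tested were higher in tg/tg, and the share in the slide 1 fit is not given here. With a normexp background correction on the uncapped local backgrounds the rise of Cx3cr1 in tg/tg did not pass (log2 difference 0.51, adjusted p = 0.279). None of the tg/wt calls of the set held there, and almost no gene of all those tested was called in tg/wt. With high local backgrounds replaced by the array median, 5 genes of the set were higher and 1 lower in tg/wt. The shares of all genes called in that fit are not given here, so these counts cannot be set against them.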

How the data were processed

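Lung RNA of 3 genotypes was measured on 6 arrays. Per the file headers, the deposited array intensity values were produced with Agilent Feature Extraction 9.5.3.1 (single-colour protocol, grid built on mm7); version 9.1 stands in the submitters' processing notes. The processed intensity is background-subtracted and detrended within an array and not scaled between arrays. The deposited series table equals the background-subtracted signal in all 45018 features (relative tolerance 1e-04) and served as an alternative.

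Spots with outlier marks were left out, spots of a probe averaged, and the log2 processed signal set relative to each array's 75th percentile over 41174 non-control probes. Accessions matched 22951 probes to RefSeq symbols (GRCm38.p6); the files used here hold no gene names. Genes entered with a probe well above background on at least 2 arrays, by the probe with the highest mean. Group means of all arrays were fitted with limma 3.58.1 (lmFit, eBayes, R 4.3.3; 3 residual degrees of freedom), adjusted over 12968 genes, threshold 0.05, and tested on simulated data. Folds given as "at least" stand where neither array of the lower group was well above background: the higher group's mean was divided by a limit for the lower group, which averages on each array the probe's own signal or, if larger, the dimmest signal that any probe well above background had. A list's summed level is the sum of its genes' linear signals relative to the 75th percentile. The number of arrays limits the precision.

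Members and gene lists were chosen with earlier results of these data known. All members are named, and from each list up to 4 genes (3 for marker lists) past the threshold with the largest difference between tg/tg and WT, with up to 2 in the other direction. Other genes named for a single reason (Bglap, Ibsp, Elane, Pf4, F13a1) were chosen after their values were seen. Alternatives were 2 normexp corrections (offset 50), quantile or detected-probe scaling, other filters, a floor, other probe rules, an intensity trend, the deposited series values, models restricted to the groups being compared, blocks for slide or for replicate number, and fits without each array. Plots used matplotlib 3.10.9 under Python 3.11.15.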

Additional observations from a re-analysis of the deposited data

How the results depend on the processing

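Under every alternative the rise of C1qa, C1qb, C1qc, Gpnmb, Trem2, Spp1 and Cd14 in tg/tg over WT kept its direction and passed, with log2 differences of 3.83 to 4.04 for C1qa, 3.79 to 4.51 for Gpnmb, 3.92 to 4.14 for Trem2, 3.03 to 3.47 for Spp1 and 2.60 to 2.88 for Cd14. Slide coincides with tg/wt, so slide as a block gives the same tg/tg against WT fit as the main one.

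The tg/wt values were less stable. With normexp on the uncapped local backgrounds, which reach 21737.5 on WT 1 against a median of 58, 1770 genes were higher and 2339 lower in tg/tg against WT, 1433 and 1864 in tg/tg against tg/wt, and 0 higher and 1 lower in tg/wt against WT. There 0 member genes were higher and 0 lower, and Gpnmb (-0.17), Cx3cr1 (-0.13) and Cd14 (0.11) changed sign. The number of member genes lower in tg/wt was 1 in place of 2 with capped normexp, quantile normalization, no filter on dim probes (1208 genes lower in all), the series values, every probe fitted on its own and the replicate block, because Cd14 did not pass there. Leaving out 1 array gave 4 to 5 member genes higher and 1 to 2 lower in tg/wt, and over all genes 746 to 1648 higher and 595 to 1824 lower. Without tg/wt 1 these were 919 and 888, without tg/wt 2 746 and 718, without WT 1 802 and 595, and without WT 2 761 and 711, against 1732 and 1887 with all arrays; fewer arrays enter these fits, and no other cause was tested.

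The replicate numbers do not pair the arrays (correlations of replicate deviations between groups -0.0458, -0.0480 and 0.129). The replicate block gave 4256 higher and 5191 lower genes in tg/tg against WT, 1269 and 1345 in tg/wt against WT and 4253 and 5110 in tg/tg against tg/wt, and ended no member call other than that of Cd14 in tg/wt.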

Other observations

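All 4 tested B cell markers were higher in tg/wt than in WT lungs (median log2 difference 0.84), and in tg/tg 3 of the 4 were lower (median -0.78). Ms4a1, which encodes CD20, was 1.98-fold lower in tg/tg and 1.91-fold higher in tg/wt, each relative to WT. Of 6 fibroblast markers 3 were higher and 3 lower in tg/tg: the collagen gene Col1a1 was 1.77-fold higher, and Lum, which encodes lumican, was 2.64-fold lower. Of 8 lung epithelial markers 1 was higher and 4 were lower in tg/tg (median -0.17), with the ciliated cell gene Foxj1 1.85-fold lower and the surfactant protein gene Sftpa1 1.17-fold higher. In tg/wt 1 of the 8 epithelial markers, Foxj1, was lower and none was higher.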
